A study of Arabidopsis thaliana with 9 samples.

Results

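The genes described here are 7 morning clock genes of *Arabidopsis thaliana*, chosen by locus from the 33602 genes counted: the MYB factors *LHY* (*AT1G01060*) and *CCA1* (*AT2G46830*), the related REVEILLE genes *RVE4* (*AT5G02840*), *RVE8* (*AT3G09600*) and *AT5G52660*, and the cofactor genes *LNK1* (*AT5G64170*) and *LNK2* (*AT3G54500*). *AT5G52660* was chosen under the name RVE6, but the annotation used here describes it only as a homeodomain-like protein gene, so its locus name is kept. With them come 15 of the 7973 bins of annotated alternative splicing (AS) events, none of them in *CCA1*, and 52 of the 120717 introns. RNA-seq of whole plants in the Columbia ecotype was compared among *prmt5* (allele *prmt5-5*), *prmt4a;4b* (a combination of T-DNA insertions in *PRMT4A* and *PRMT4B*) and wild type (WT), with 3 libraries each. Per the labels, all plants came from plates kept under continuous light at 22 °C and were harvested at 15 d, whereas the methods give a shorter time. The hour of harvest was not given in the sources used here, and nothing states that the libraries came from separate cultures, so the p-values measure the spread among these libraries.

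In the plant clock, *LHY* and *CCA1* are expressed around dawn and repress evening genes such as *TOC1*. RVE4 and RVE8 belong to the same family of MYB proteins but act as activators of evening-phased genes, and LNK1 and LNK2 are coactivators that bind RVE proteins. The PRR proteins in turn repress *CCA1* and *LHY* through the day, and the evening complex of ELF3, ELF4 and LUX represses *PRR9* at night. PRMT5 is a symmetric (type II) and PRMT4 an asymmetric (type I) arginine methyltransferase, and both enzyme types have been linked to pre-mRNA splicing. Many clock transcripts, *LHY*, *CCA1* and *RVE8* among them, are known to be alternatively spliced.

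Short stretches of sequence at the splice sites described further on are shown first. Only for the 22-base and 3-base segments is a site with a splicing difference shown beside a homologous or like site that had none. The first is a segment of 22 bases that can be added to an exon of *RVE8* and to the matching exon of *RVE4* by use of an earlier acceptor (3′alt). Both are shown 5′ to 3′ on the plus strand (RefSeq, TAIR10.1), with the segment in capitals, at chr3:2948152-2948181 and chr5:651158-651187.
*RVE8*: ctagTCGGATTGTAATGATGCTGCAGagga
*RVE4*: ttagTCTGAATATGTTGATGCTGCAGagga
The segments were identical at 17 of 22 positions, and each begins after an AG and ends with one. Since 22 is not a multiple of 3, its use shifts the reading frame in transcripts where it lies within the coding region. The intron just before each segment is intron 7 of the deposited numbering in both genes. The donors of these introns and of the retained introns of *LHY* (chr1:37561-37571) and *LNK2* (chr3:20177613-20177623, both minus strand) are shown with 3 exon bases and the GT in capitals, to set their exon ends side by side (*RVE8* chr3:2947981-2947991, *RVE4* chr5:650918-650928).
*RVE8* intron 7: actGTaagtgt
*RVE4* intron 7: actGTaagtta
*LHY* retained intron: aggGTataaca
*LNK2* retained intron: gatGTatccaa
None of the 4 has AG as its last exon bases, which 50.9% of the 136162 RefSeq introns have. The 4 were picked for their calls, and the exon ends of the other member introns were not counted. This therefore describes only the sites shown and no trait of called introns. Of the 52 member introns, 51 equal an intron of the RefSeq annotation, and 49 of these have GT and AG ends at the deposited coordinates. *LNK2* also has an alternative acceptor that adds 14 bases (chr3:20177685-20177714, minus strand, in capitals).
*LNK2*: tcctcacaagTGATGGTTTTGCAGcaatga
*AT5G52660* has a pair of acceptors 3 bases apart (chr5:21360100-21360123, minus strand), and so does *LHY* (chr1:35466-35489, minus strand), with the 3 bases between them in capitals.
*AT5G52660*: cgttgatggaaacagCAGgagcag
*LHY*: cattctgatttttagCAGgtaagt
In both, either acceptor keeps the frame.

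The libraries held 25029646 to 39904677 reads in genes. In the *prmt4a;4b* libraries *PRMT4A* was at 1.03 to 2.19 and *PRMT4B* at 0.555 to 1.08 CPM, against 10.2 to 10.9 and 11.4 to 12.6 in WT, whereas *PRMT5* reads were not lower in *prmt5* (24.8 to 32.3, against 21.6 to 23.2 in WT). The lesion of *prmt5-5* was not given in the sources used here, so the *prmt5* genotype was not checked by these reads. *PRMT4A* also fell in *prmt5*, to 6.26 to 7.34 CPM (log2 change -0.66 ± 0.15, SE, edgeR adjusted p = 0.00645), whichever library was left out. *PRMT4B* was not called in *prmt5* (0.00). CPM are read counts of a gene scaled to a common library size, with library sizes adjusted by TMM (trimmed mean of M values). The 4 green tissue markers had reads in every library and summed to 79416 to 92269 in *prmt5* and 84114 to 116947 in *prmt4a;4b*, against 58546 to 68749 in WT. None of them was called in *prmt5*, while *CAB1* (1.02) and *CAB2* (0.66) rose in *prmt4a;4b*. Without *prmt4a;4b* library 1 or 3 the call of *CAB2* was lost. *RBCS1A* (-0.40) and *RCA* (-0.26) were lower in *prmt4a;4b* than in WT without a call. Both were called higher in *prmt5* than in *prmt4a;4b* (0.71 and 0.63 on the log2 scale). Each of these differences between the mutants was lost without some single mutant libraries. The 4 floral organ markers summed to at most 0.707 CPM in any library, and the 4 root markers to 132 to 167 in *prmt5* and 89.9 to 134 in *prmt4a;4b*, against 81.9 to 129 in WT. Of the root markers *EXPA7* (1.51) and *CASP1* (1.11) rose and *NRT2.1* fell in *prmt5*, and *EXPA7* rose in *prmt4a;4b* (0.84 on the log2 scale). *NRT2.1* was hardly read, with 0.0664, 0.149 and 0 CPM in *prmt5*, against 0.338, 0.106 and 1.19 in WT. Its call was kept in 3 of the 5 fits with a library left out that tested it. The remaining root marker was called in neither mutant (-0.25 in *prmt5* and -0.06 in *prmt4a;4b*). Plastid reads made up 0.604 to 2.1% of gene reads in *prmt5* and 0.869 to 3.94% in *prmt4a;4b*, against 0.324 to 0.58% in WT. The part of tissue makeup or plastid reads in the results was not tested, and in whole plants fewer cells of a type cannot be told apart from less RNA per cell. Seed storage transcripts stood apart in *prmt5* library 1, where *CRU3*, a cruciferin gene, had 150 CPM, against 1.98 and 25.9 in the other *prmt5* libraries and 12.1 to 33.5 in WT. The 3 seed storage genes tested in *prmt4a;4b* fell (*CRU3* -2.59, *CRA1* -1.30 and *OLEO1* -0.85), and *SESA2* rose in *prmt5*, with 7.38, 0.397 and 1.39 CPM, against 0.0614, 0 and 0 in WT. The call of *OLEO1* was lost without WT library 2 or 3 or *prmt4a;4b* library 2, and *SESA2* had enough reads to be tested only through *prmt5*. Among the clock genes WT library 3 stood apart: it had the lowest WT values of *LHY*, *CCA1*, *AT5G52660*, *LNK1* and *LNK2* and the highest WT values of the evening genes *LUX* (33.1 CPM, against 20.3 and 22.8 in WT 1 and 2), *ELF4* (25.5, against 18.9 and 16.7) and *CCR2* (775, against 581 and 528). In *prmt4a;4b*, library 2 was the lowest of its genotype for 6 of the 7 members and the highest for *LUX* (63.9) and *CCR2* (1018). The part of harvest time or circadian phase in these differences was not tested.

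In *prmt5* plants *LNK2*, *LHY* and *AT5G52660* fell, and none of the 7 genes rose. A gene was called changed when its log2 fold change exceeded 0.58 in either direction and its adjusted p was below 0.10 (edgeR quasi-likelihood test, Benjamini-Hochberg adjustment over all genes). Of all 21078 genes tested in this comparison, 14.2% fell and 11.9% rose, and the median log2 change was -0.01 over all genes and -0.40 over the 7 members. In *prmt4a;4b* plants, *LHY* and *AT5G52660* fell and none rose, beside 12.0% of the 20844 genes tested that fell and 13.8% that rose, with a median of -0.22 over the members and 0.00 over all genes. At an unadjusted p under 0.05, or with DESeq2, none of the 7 rose in either mutant. Both mutants were set against the same 3 WT libraries, so their changes are not independent.

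*LHY*, the dawn repressor, had 42.3, 32.6 and 30.8 CPM in *prmt5*, 47.6, 30.1 and 53.8 in *prmt4a;4b*, and 74.2, 82.8 and 47.4 in WT. Every *prmt5* library lay below every WT library, while *prmt4a;4b* library 1 and 3 overlapped the low WT library 3. The log2 change was -1.0 ± 0.20 (SE) in *prmt5* (adjusted p = 0.00417), while in *prmt4a;4b* it was -0.64 ± 0.22 (adjusted p = 0.0419), and the mutants were not told apart (-0.31 ± 0.22, adjusted p = 0.327). The fall in *prmt5* passed whichever library was left out, and was -1.21 without WT library 3. That in *prmt4a;4b* was lost without WT library 1 (-0.57, adjusted p = 0.116), WT library 2 (-0.47, adjusted p = 0.15) or *prmt4a;4b* library 2 (-0.45, adjusted p = 0.131), and was -0.84 without WT library 3.

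*CCA1*, the close relative of *LHY*, moved less. Its levels were 88.4, 75.7 and 85.6 CPM in *prmt5*, 108.1, 68.1 and 96.9 in *prmt4a;4b*, and 114, 105 and 100.1 in WT. The *prmt5* libraries all lay below WT, with a log2 change of -0.40 ± 0.12 whose adjusted p was 0.0258 but whose size fell short of 0.58. In *prmt4a;4b* the ranges overlapped (-0.22 ± 0.15, adjusted p = 0.287). The ratio of *LHY* to *CCA1* reads was 0.478, 0.431 and 0.360 in *prmt5*, 0.440, 0.442 and 0.555 in *prmt4a;4b*, and 0.652, 0.787 and 0.473 in WT. Neither mutant differed from WT in this ratio by an exact permutation test (two-sided p = 0.2 in each of 2 comparisons, unadjusted; 0.1 is the smallest that 3 against 3 allows).

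*AT5G52660* was the least expressed member. It had 3.16, 3.47 and 2.97 CPM in *prmt5*, 3.01, 3.50 and 4.69 in *prmt4a;4b*, and 6.45, 6.12 and 5.36 in WT, from 76 to 230 reads per library. The libraries of both mutants lay below all WT libraries. The log2 change was -0.94 ± 0.18 in *prmt5* (adjusted p = 0.00329). It was -0.68 ± 0.21 in *prmt4a;4b* (adjusted p = 0.0233), with no call between the mutants (-0.22 ± 0.20, adjusted p = 0.459). Without *prmt4a;4b* library 1 the change in that mutant was -0.56 (adjusted p = 0.0680), just under the size limit.

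*RVE4* and *RVE8*, the activators of evening genes, passed in neither mutant. *RVE4* had 40.3, 29.6 and 36.2 CPM in *prmt5*, 56.2, 37.1 and 56.5 in *prmt4a;4b*, and 41.8, 42.2 and 42.2 in WT. It was thus below WT in all *prmt5* libraries (-0.30 ± 0.13, adjusted p = 0.111) and above it in all but library 2 of *prmt4a;4b* (0.25 ± 0.15, adjusted p = 0.228). Between the mutants the log2 difference was -0.50 ± 0.16 (adjusted p = 0.0433), short of the size limit, and it passed without *prmt5* library 1 (-0.62) or *prmt4a;4b* library 2 (-0.69). *RVE8* had 43.6, 27.6 and 28.6 CPM in *prmt5*, 46.6, 28.4 and 42.5 in *prmt4a;4b*, and 35.0, 31.0 and 31.9 in WT. The 3 ranges overlapped, with log2 changes of -0.02 ± 0.17 in *prmt5* (adjusted p = 0.950), while in *prmt4a;4b* it was 0.26 ± 0.16 (adjusted p = 0.230).

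The pair of coactivator genes differed from each other. *LNK2* had 92.8, 83.9 and 76.9 CPM in *prmt5*, 140.1, 136 and 177 in *prmt4a;4b*, and 234, 238 and 167 in WT. The *prmt5* libraries lay below those of both other genotypes, while *prmt4a;4b* library 3 exceeded WT library 3. The log2 change of -1.38 ± 0.16 in *prmt5* (adjusted p = 0.000268) was the largest of the 7 members. In *prmt4a;4b* it was -0.49 ± 0.16 (adjusted p = 0.0283), short of the size limit, and it passed that limit without WT library 3 (-0.64) or *prmt4a;4b* library 3 (-0.65). *LNK2* was also the only member to differ between the mutants, by -0.84 ± 0.16 (adjusted p = 0.00277), in a comparison where 8.46% of 20995 genes were lower and 9.49% higher in *prmt5*. This difference passed with each of the 9 libraries left out in turn.

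*LNK1* had 33.7, 29.2 and 33.2 CPM in *prmt5*, 37.3, 22.8 and 33.7 in *prmt4a;4b*, and 39.2, 36.4 and 31.6 in WT. Its ranges overlapped, with log2 changes of -0.20 ± 0.13 in *prmt5* (adjusted p = 0.257), while in *prmt4a;4b* it was -0.19 ± 0.17 (adjusted p = 0.402). The ratio of *LNK2* to *LNK1* reads was 2.75, 2.88 and 2.32 in *prmt5*, 3.76, 5.96 and 5.26 in *prmt4a;4b*, and 5.96, 6.55 and 5.29 in WT. The *prmt5* ratios lay below all others (exact permutation test against WT and against *prmt4a;4b*, two-sided p = 0.1 each, the smallest possible with 3 against 3). *LNK2* overlaps the antisense genes *AT3G54490* by 93 bases and *AT3G08405*, a long noncoding RNA that was not counted, by 266 bases, and *LNK1* overlaps the antisense gene *AT5G64160* by 245 bases. The libraries did not keep strand, so reads in these stretches cannot be told apart.

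**Figure D1:**
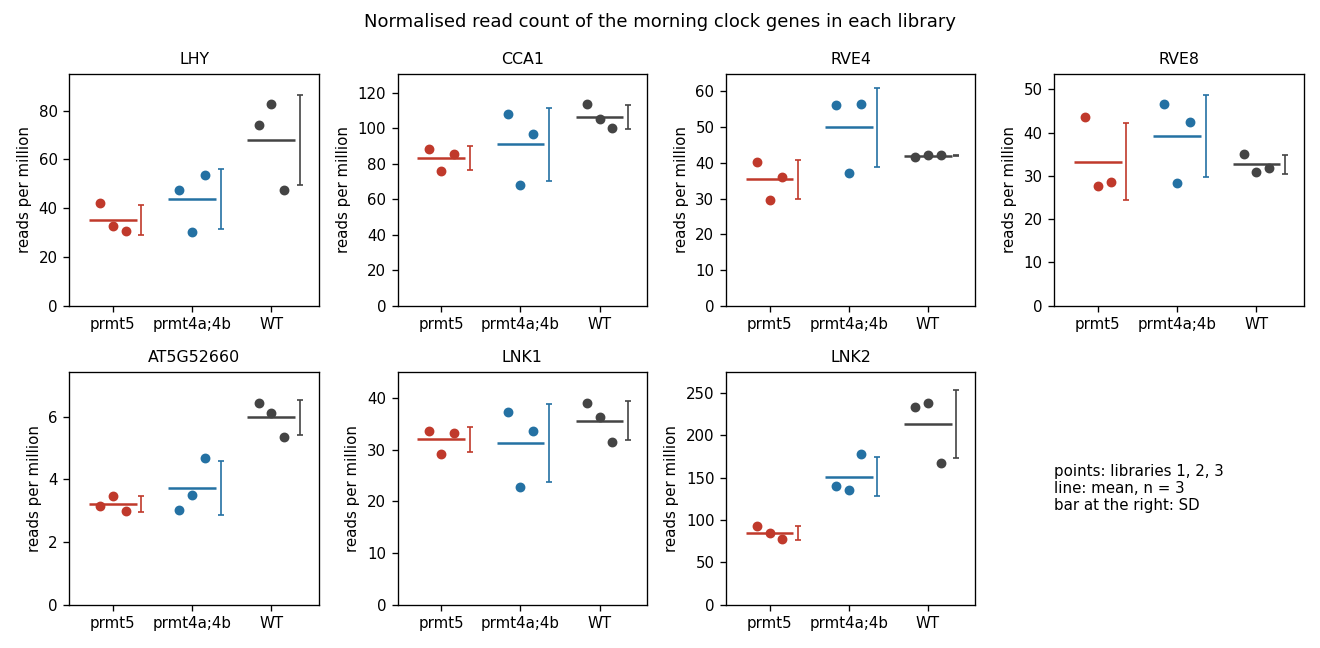
Normalised read counts (CPM, linear axes from 0) of the 7 morning clock genes in the 3 libraries each of *prmt5*, *prmt4a;4b* and WT; points are libraries 1 to 3 from left to right, lines the means and bars the SD (n = 3). *LNK2* is lowest in *prmt5* (77 to 92.8) and highest in WT (167 to 238), and WT library 3 is the lowest WT library for *LHY*, *CCA1*, *AT5G52660*, *LNK1* and *LNK2*.

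**Figure D2:**
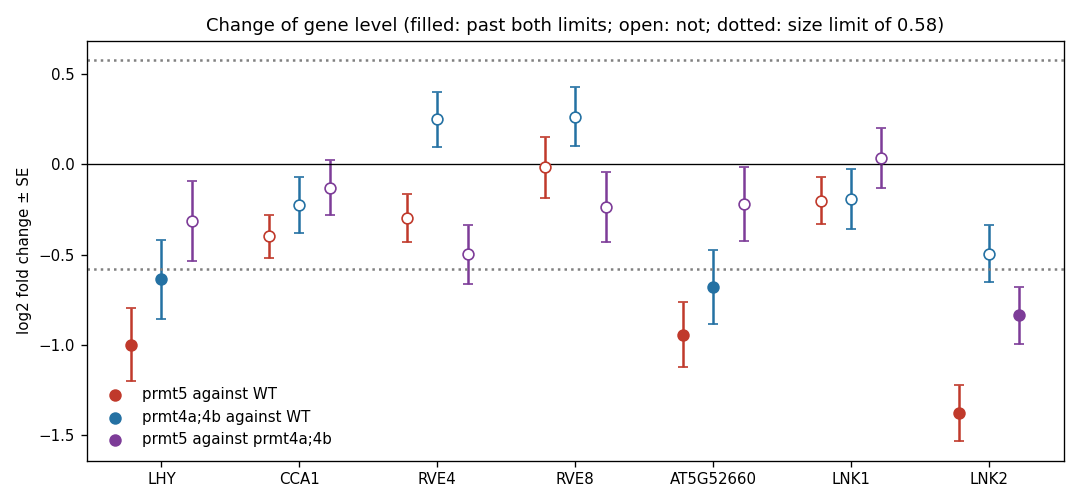
Log2 fold change ± SE of each gene (edgeR) in *prmt5* against WT, *prmt4a;4b* against WT and *prmt5* against *prmt4a;4b*; filled symbols passed both limits, open ones did not, and dotted lines mark 0.58. Filled symbols are found at *LHY* and *AT5G52660* in both mutants, and at *LNK2* in *prmt5* against WT (-1.38) and against *prmt4a;4b* (-0.84).

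Levels of different genes were compared per kilobase of exon. In WT the order was *LNK2* (76.9 ± 14.4 CPM per kb, SD, n = 3), *CCA1* (45.4 ± 2.96), *RVE4* (25.9 ± 0.162), *RVE8* (22.9 ± 1.49), *LHY* (21.1 ± 5.71), *LNK1* (13.8 ± 1.48) and *AT5G52660* (4.03 ± 0.376). In that order the ranges of *RVE8*, *LHY* and *LNK1* overlapped from neighbour to neighbour, and the others were separate. In *prmt5*, *CCA1* (35.5 ± 2.85) and *LNK2* (30.5 ± 2.88) led with overlapping ranges, and *LHY* (10.9 ± 1.91) came after *LNK1* (12.4 ± 0.964) with ranges that also overlapped. In *prmt4a;4b* the order began with *LNK2* (54.5 ± 8.25), *CCA1* (38.8 ± 8.81) and *RVE4* (30.8 ± 6.87), of which the last pair overlapped.

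Over the 9 libraries, the correlation of log2 normalised counts between members was highest for these pairs. The values were 0.91 for *CCA1* and *LNK1*, 0.87 for *AT5G52660* and *LNK2*, 0.87 for *LHY* and *LNK2*, 0.85 for *LHY* and *CCA1*, 0.83 for *LHY* and *AT5G52660*, and 0.81 for *RVE4* and *RVE8*, down to -0.11 for *AT5G52660* and *RVE8*. These describe 9 libraries of 3 genotypes that share depth and genotype differences. Among 17335 other genes with a mean of at least 50 normalised counts, those most like a member were *AT4G07825* (r = 0.99) and *NET1B* (0.99) for *LNK2*, *AT5G58640* (0.98) for *AT5G52660*, and *AT1G15740* (0.97) and *ATH13* (0.97) for *LHY*. For *CCA1* they were *AT2G20170* (0.97) and *AT5G57610* (0.94), for *RVE4* *AT4G31140* (0.95) and *CDF2* (0.93), for *RVE8* *AT1G56423* (0.95) and *AT5G54585* (0.93), and for *LNK1* *INT1* (0.91) and *ABA1* (0.91). *CDF2* encodes a DOF factor that represses *CO* and flowering, and *ABA1* the zeaxanthin epoxidase of abscisic acid synthesis.

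Alternative splicing was examined in the AS bins of the same genes. A bin was called where both its reads and its splicing index moved the same way by over 0.58 on the log2 scale and the adjusted p was below 0.15; the index is the read density of the bin over that of its gene. The index of a short bin can lie far above 1 (60.5 for the 3 bases of *AT5G52660* in WT), so it is compared only within a bin. Of the 15 member bins, 13 had enough reads in *prmt5* against WT, of which 1 rose and none fell, where 15.3% of 4205 bins tested rose and 13.0% fell. In *prmt4a;4b* 12 were tested, of which 5 rose and 1 fell, where 17.9% of 3933 rose and 14.7% fell. Between the mutants 1 of 13 was higher and 3 were lower in *prmt5*, where 7.31% of 4133 were higher and 3.29% lower.

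The bin that rose in *prmt5* was a retained intron of 170 bases in the 5′ leader of *LHY* (bin E015, chr1:37399-37568, minus strand, TAIR10), an intron in 4 and exonic in 3 of 8 RefSeq transcripts. It had 27, 9 and 21 reads in *prmt5*, 4, 3 and 5 in *prmt4a;4b*, and 2, 2 and 3 in WT. All *prmt5* libraries exceeded all others although *LHY* itself had fallen. Per 100 *LHY* reads this was 1.59 ± 0.790 in *prmt5*, 0.342 ± 0.0135 in *prmt4a;4b* and 0.128 ± 0.0941 in WT (SD, n = 3). The log2 change was 2.85 ± 0.72 against WT (adjusted p = 0.00638) and 1.90 ± 0.67 against *prmt4a;4b* (adjusted p = 0.0742). The call between the mutants was lost without *prmt5* library 1 (adjusted p = 0.269), *prmt5* library 3 (0.215) or *prmt4a;4b* library 2 (0.223), and all WT libraries had under 5 reads, so the bin met the read filter only through *prmt5*. The most read *LHY* bin, the 3 bases shown above (bin E006), had 31, 43 and 33 reads in *prmt5*, 37, 28 and 61 in *prmt4a;4b*, and 82, 85 and 30 in WT. Its reads followed those of the gene, at 2.93 ± 0.439, 3.52 ± 0.727 and 2.83 ± 0.524 per 100 *LHY* reads in that order of genotypes, and it was not called.

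*RVE4* carried a call in its 22-base segment (bin E009). It had 43, 25 and 34 reads in *prmt5*, 71, 63 and 74 in *prmt4a;4b*, and 25, 39 and 36 in WT. The *prmt4a;4b* libraries lay above all others, while *prmt5* and WT overlapped. The log2 change was 1.31 ± 0.30 in *prmt4a;4b* (adjusted p = 0.00324), -0.11 ± 0.37 in *prmt5* (adjusted p = 0.847) and -1.37 ± 0.33 for *prmt5* against *prmt4a;4b* (adjusted p = 0.00907). The homologous segment of *RVE8* (bin E008) had 31, 17 and 24 reads in *prmt5*, 11, 21 and 14 in *prmt4a;4b*, and 24, 15 and 10 in WT, with overlapping ranges and no call in any comparison. Per 100 reads of its gene the segment stood at 2.79 ± 0.730, 5.25 ± 0.401 and 2.49 ± 0.669 in *RVE4* and at 2.1 ± 0.501, 1.56 ± 0.814 and 1.52 ± 0.509 in *RVE8* (*prmt5*, *prmt4a;4b* and WT; SD, n = 3). The genes shared no run of 50 identical bases.

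*LNK1* was called in a cassette exon of 130 bases (bin E007, chr5:25675911-25676040, minus strand), part of 2 of its 3 RefSeq transcripts and lying on the 5′ UTR side or across the start of the coding region. It had 23, 21 and 25 reads in *prmt5*, 24, 42 and 47 in *prmt4a;4b*, and 15, 10 and 17 in WT. Both mutants lay above WT in raw reads, which are not scaled for depth, with *prmt4a;4b* library 1 within the range of *prmt5*. Per 100 *LNK1* reads, *prmt5* (2.27, 1.79 and 2.17) overlapped WT (1.18, 0.732 and 2.00), and *prmt4a;4b* (2.55, 6.20 and 5.36) lay above both. The log2 change was 1.64 ± 0.42 in *prmt4a;4b* (adjusted p = 0.00613), 0.53 ± 0.45 in *prmt5* (adjusted p = 0.387) and -1.06 ± 0.38 between *prmt5* and *prmt4a;4b* (adjusted p = 0.0830). The difference between the mutants was lost on leaving out *prmt5* library 2 (adjusted p = 0.280) or 3 (0.168), or *prmt4a;4b* library 2 (0.168) or 3 (0.293). The exon is bounded by these splice sites (minus strand), with AG and GT in capitals, at chr5:25676038-25676058 and chr5:25675903-25675913.
Acceptor: tttatatttcctatccAGaac
Donor: gagGTgagtgg
The last exon bases before this donor are AG.

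The 3 bases between the acceptors of *AT5G52660* (bin E005) had 5, 14 and 15 reads in *prmt5*, 5, 5 and 9 in *prmt4a;4b*, and 34, 25 and 13 in WT. They were lower in all *prmt4a;4b* libraries than in any WT library, while *prmt5* overlapped WT. The bin fell by 1.62 on the log2 scale in *prmt4a;4b* (SE 0.53, adjusted p = 0.0260), a call that was lost without WT library 1 (adjusted p = 0.157), and it was at -1.24 ± 0.48 in *prmt5* (adjusted p = 0.0627) without a call, its splicing index having changed by -0.31.

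*LNK2* held 7 of the 15 bins. The 65-base intron (bin E009, chr3:20177556-20177620, minus strand), retained in 7 of 8 RefSeq transcripts, had 273, 307 and 288 reads in *prmt5*, 369, 417 and 513 in *prmt4a;4b*, and 217, 354 and 312 in WT. In reads, *prmt4a;4b* lay above the other genotypes (0.81 ± 0.23, adjusted p = 0.0124) and *prmt5* overlapped WT (-0.19 ± 0.24, adjusted p = 0.583). The gene as a whole, though, had fallen in *prmt5*. Per 100 *LNK2* reads the intron thus had 9.77, 9.07 and 10.8 reads in *prmt5*, 10.5, 10.3 and 11.1 in *prmt4a;4b*, and 2.85, 3.95 and 6.96 in WT, with both mutants above WT and WT library 3 nearest to them. The 14-base segment (bin E011) had 21, 39 and 31 reads in *prmt5*, 44, 51 and 60 in *prmt4a;4b*, and 23, 27 and 23 in WT, with a log2 change of 1.34 ± 0.32 in *prmt4a;4b* (adjusted p = 0.00398). A further bin of 93 bases (E013), to which the files give no event type, with 9, 15 and 20 reads in *prmt4a;4b* and 14, 2 and 2 in WT, was called in *prmt4a;4b* (1.53 ± 0.71, adjusted p = 0.106) and between the mutants (-1.62 ± 0.69, adjusted p = 0.149, with 6, 4 and 8 reads in *prmt5*). In reads *prmt4a;4b* overlapped WT but not *prmt5*, and each of these calls was lost on leaving out any of several libraries in turn, namely WT library 2 or 3 or *prmt4a;4b* library 2 or 3 in *prmt4a;4b* against WT (adjusted p = 0.275, 0.199, 0.174 and 0.331), and every *prmt5* library and *prmt4a;4b* library 2 or 3 between the mutants (adjusted p = 0.182 to 0.393).

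A further test was on the share of the gene's reads, with the reads of the gene outside the bin as the offset. It sets a bin against the level of its gene, but other transcript starts or ends and antisense reads can move the share as well as splicing. By that test 7 of 13 member bins rose in *prmt5* and none fell, where 19.8% of 4205 bins rose and 14.7% fell (34.5% in all). Of these 7, 6 were in *LNK2*: the 65-base intron (1.19 ± 0.27, adjusted p = 0.00470), the 14-base segment (1.5 ± 0.39, adjusted p = 0.0102) and bins E004, E014, E016 and E018, whose log2 changes ran from 0.97 to 1.73. The most read of all, E016, had 308, 288 and 266 reads in *prmt5*, 408, 434 and 427 in *prmt4a;4b*, and 345, 404 and 297 in WT. Per 100 gene reads it was at 9.84 ± 1.26 in *prmt5*, 10.5 ± 1.16 in *prmt4a;4b* and 5.22 ± 1.21 in WT. Part of E016 overlaps the antisense RNA *AT3G08405*, and neighbouring bins can share reads, so the 6 bins are not independent. In *prmt4a;4b*, 7 of 12 rose and 1 fell by this test, where 21.7% rose and 17.2% fell (39.0% in all), with the 3 bases of *AT5G52660* as the bin that fell and the 65-base intron at 1.31 ± 0.25 (adjusted p = 0.00106). Without WT library 3 the 65-base intron was at 1.64 in *prmt5* and 1.75 in *prmt4a;4b*. Between the mutants 1 of 13 was higher and 2 were lower in *prmt5*, where 5.52% were higher and 2.86% lower (8.37% in all). No *LNK2* bin passed there, and *LHY* E015 (2.20 ± 0.68), *RVE4* E009 (-0.95 ± 0.30) and *LNK1* E007 (-1.21 ± 0.41) did.

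**Figure D3:**
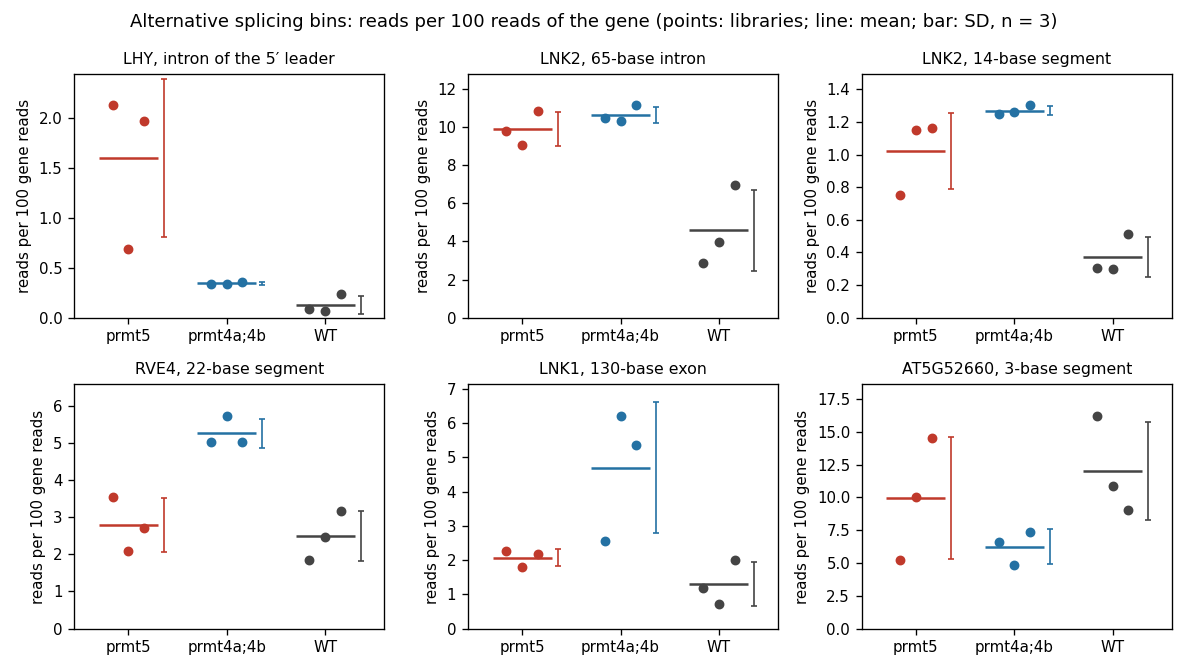
Reads of 6 AS bins per 100 reads of their gene in each library of *prmt5*, *prmt4a;4b* and WT (points: libraries; lines: means; bars: SD, n = 3). The *LHY* leader intron is highest in *prmt5* (1.59 on average, against 0.128 in WT), the *RVE4* segment and the *LNK1* exon are highest on average in *prmt4a;4b*, and both *LNK2* bins are higher in both mutants than in WT.

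Introns outside annotated AS events carried few reads. Of the 52 member introns, 25 had a mean of at least 5 reads in *prmt5* or WT and 18 also met the limits on gene density and splicing index (above 0.05). Of these 18, 2 rose and 2 fell in *prmt5*, where 32.6% of 14890 introns rose and 7.39% fell, or 40.0% in all. By the test on the share of gene reads 6 rose and none fell, where 32.0% rose and 5.8% fell, or 37.8% in all. In *prmt4a;4b*, 1 of 16 rose and 2 fell, where 15.0% of 10991 rose and 10.3% fell (25.3% in all), and on the share 3 rose and none fell, where 14.7% rose and 7.25% fell (22.0% in all). Between the mutants 1 of 14 was higher and 1 lower in *prmt5*, where 21.5% of 14113 were higher and 2.73% lower (24.3% in all), and on the share 2 were higher and none lower, where 15.9% were higher and 2.23% lower (18.1% in all).

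The introns that rose in *prmt5* were the homologous introns 7 of *RVE8* and *RVE4*, which end where the 22-base segments begin. Both met the filter of 5 reads only through the genotypes in which they were high. *RVE8* intron 7 (chr3:2947984-2948155, plus strand) had 13, 14 and 18 reads in *prmt5*, 12, 12 and 12 in *prmt4a;4b*, and 8, 1 and 2 in WT. Both mutants lay above WT, by 1.84 ± 0.65 in *prmt5* (adjusted p = 0.0335), while in *prmt4a;4b* it was 1.93 ± 0.66 (adjusted p = 0.0510), with a log2 difference of -0.05 ± 0.52 between them (adjusted p = 0.962). *RVE4* intron 7 (chr5:650921-651161, plus strand) had 13, 11 and 8 reads in *prmt5*, 2, 3 and 4 in *prmt4a;4b*, and 0, 3 and 2 in WT. It lay above the other genotypes only in *prmt5*, with a log2 change of 2.46 ± 0.82 against WT (adjusted p = 0.0226) and 1.44 ± 0.76 against *prmt4a;4b* (adjusted p = 0.205, not called); on the share of gene reads the difference between the mutants passed (1.92 ± 0.74, adjusted p = 0.112). Further introns of *RVE4* had more reads in *prmt5* but a splicing index too low to be tested. Intron 1 had 19, 18 and 17 reads in *prmt5*, 1, 8 and 5 in *prmt4a;4b*, and 7, 10 and 8 in WT, and intron 6 had 14, 9 and 2 in *prmt5*, 1, 0 and 2 in *prmt4a;4b*, and 2, 0 and 0 in WT. In *prmt4a;4b* the call of *RVE8* intron 7 was lost without WT library 2 (1.41, adjusted p = 0.173).

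*LNK1* intron 3 (chr5:25673577-25673736, minus strand) was the intron that was higher in *prmt5* than in *prmt4a;4b*. It had 22, 22 and 21 reads in *prmt5*, 7, 4 and 6 in *prmt4a;4b*, and 16, 10 and 6 in WT. The log2 difference between the mutants was 1.54 ± 0.52 (adjusted p = 0.0380), lost without *prmt4a;4b* library 2 (1.27, adjusted p = 0.173), and against WT it was 0.87 ± 0.46 in *prmt5* (adjusted p = 0.155). On the share of gene reads the rise in *prmt5* against WT passed (1.11 ± 0.43, adjusted p = 0.0712).

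The introns that fell lay in *LHY* and *CCA1*, and none of these falls passed on the share of gene reads. *LHY* intron 11 (chr1:36922-37022) had 3, 4 and 1 reads in *prmt5*, 0, 1 and 4 in *prmt4a;4b*, and 5, 21 and 5 in WT. It met the read filter only through WT, where most reads came from library 2, without which neither call held (adjusted p = 0.385 in *prmt5* and 0.428 in *prmt4a;4b*), and the call was also lost without *prmt5* library 3 (0.15) and without *prmt4a;4b* library 1 (0.201) or 2 (0.221). In *CCA1*, intron 4, whose retention is known to give a shorter form of the protein, is split in the files into a pair of adjoining pieces. Its last 111 bases (I005) had 13, 17 and 7 reads in *prmt5*, 5, 14 and 12 in *prmt4a;4b*, and 26, 30 and 20 in WT, lower in both mutants (-1.19 ± 0.43, adjusted p = 0.0408, and -1.03 ± 0.45, adjusted p = 0.119). These 111 bases are by themselves a whole intron in 2 of 3 RefSeq transcripts, so their reads need not come from retention of all of intron 4. The first 367 bases (I004) had 60, 56 and 29, 51, 53 and 49, and 59, 35 and 31 reads in the same order, with no call in reads, but on the share of gene reads this piece rose in *prmt4a;4b* (0.83 ± 0.31, adjusted p = 0.102), which was not called without WT library 3 (adjusted p = 0.152). I004 is exonic in 1 and partly exonic in 1 of 3 RefSeq transcripts, so its reads may come from other starts as well as from a retained intron. *LNK2* intron 3, which met the read filter only through *prmt4a;4b*, was lower in *prmt5* than in *prmt4a;4b* (3, 8 and 1 against 5, 9 and 14 reads, -1.59 ± 0.67, adjusted p = 0.103) as was the gene; its share did not pass, and the call was lost without *prmt5* library 1 or 3 or *prmt4a;4b* library 3 (adjusted p = 0.181, 0.334 and 0.374).

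*LNK2* intron 7 (chr3:20177705-20177934, minus strand) had 18, 27 and 21 reads in *prmt5*, 25, 15 and 19 in *prmt4a;4b*, and 16, 14 and 18 in WT. Its reads overlapped WT in both mutants, and on the share of gene reads it rose in *prmt5* (1.61 ± 0.42, adjusted p = 0.0115) and was at 1.01 ± 0.45 in *prmt4a;4b* (adjusted p = 0.159), where it passed without WT library 3 (1.43, adjusted p = 0.0691).

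In *LHY*, reads in the remaining leader intron (I012) and in an intron of the 3′ end (I001) were kept while the gene fell. I012 had 41, 41 and 36 reads in *prmt5*, 55, 23 and 31 in *prmt4a;4b*, and 36, 18 and 33 in WT, and on the share of gene reads it rose in *prmt5* (1.16 ± 0.41, adjusted p = 0.0541) and *prmt4a;4b* (1.11 ± 0.44, adjusted p = 0.125). I001 had 51, 46 and 52 reads in *prmt5*, 50, 30 and 53 in *prmt4a;4b*, and 25, 49 and 51 in WT, and rose in *prmt5* on that share (0.99 ± 0.40, adjusted p = 0.0878). In WT library 3 both shares lay within the range of the mutants, at 2.59 and 4.01 reads per 100 *LHY* reads. These introns are exonic or partly exonic in some RefSeq transcripts, so their reads may come from other starts or ends as well as from retained introns.

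**Figure D4:**
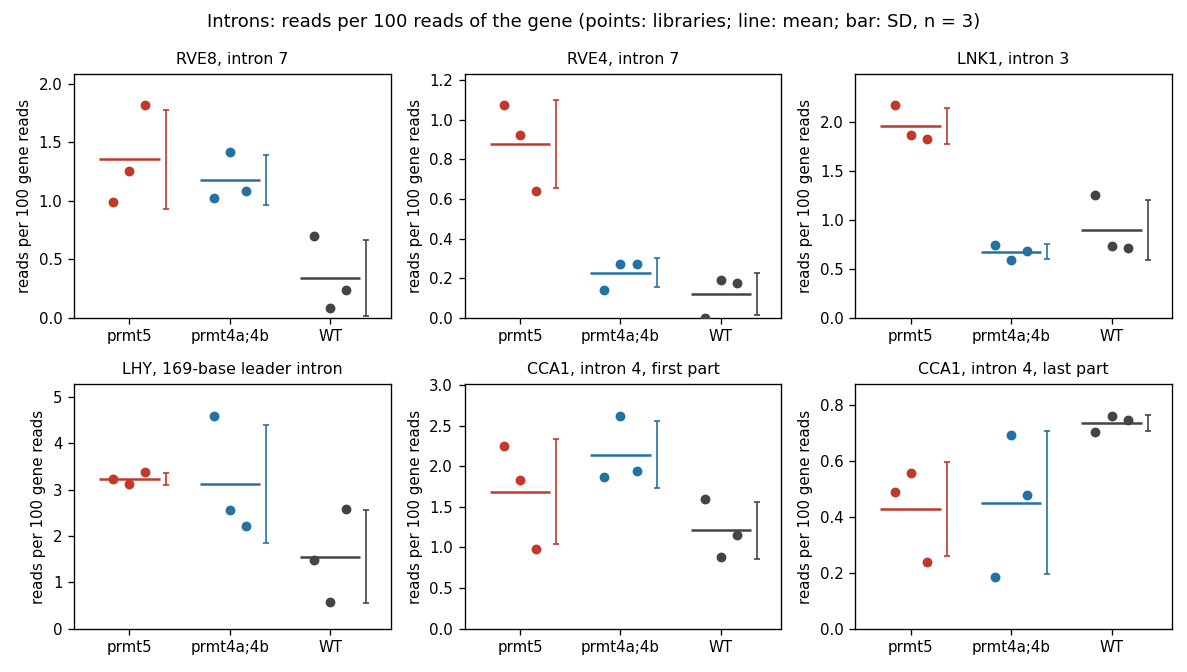
Reads of 6 introns or intron parts per 100 reads of their gene in each library of *prmt5*, *prmt4a;4b* and WT (points: libraries; lines: means; bars: SD, n = 3). *RVE8* intron 7 is higher in both mutants than in WT, *RVE4* intron 7 and *LNK1* intron 3 are highest in *prmt5*, and the last part of *CCA1* intron 4 is highest in WT.

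The other clock genes were counted from fixed lists of 34 genes. In *prmt5* 7 rose, 5 fell and 22 did not pass, where 11.9% of all genes rose and 14.2% fell. In *prmt4a;4b* 8 rose, 1 fell and 25 did not pass, where 13.8% rose and 12.0% fell. Among 7 RVE and LNK relatives 3 fell in *prmt5* (*RVE1*, *RVE7*, *LNK3*) and 1 rose (*RVE5*), with a median log2 change of -0.58, and in *prmt4a;4b* 1 rose (*RVE2*, a regulator of germination also known as *CIR1*). *RVE1* was at -0.73 ± 0.19 in *prmt5* (edgeR adjusted p = 0.0125). In *prmt4a;4b* it was at -0.579 ± 0.18 (adjusted p = 0.0231), just short of the size limit. It passed there without WT library 2 or 3 or *prmt4a;4b* library 3, and was not called between the mutants (-0.11 ± 0.20, adjusted p = 0.740). *LNK3* had 15.8, 11.7 and 11.9 CPM in *prmt5*, 22.2, 17.0 and 19.8 in *prmt4a;4b*, and 26.0, 21.7 and 24.1 in WT. Like *LNK2* it was lower in *prmt5* than in *prmt4a;4b* (-0.59 ± 0.15, adjusted p = 0.0162), as were *RVE7* (-0.66 ± 0.20, adjusted p = 0.0315) and *RVE2* (-0.81 ± 0.21, adjusted p = 0.0146). In *prmt5* the call of *RVE7* was lost without WT library 1 or *prmt5* library 3, and that of *RVE1* without *prmt5* library 2. The difference in *LNK3* between the mutants was lost without *prmt5* library 2 or 3 or *prmt4a;4b* library 1, and that in *RVE7* without library 3 of either mutant.

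Of the 5 pseudo-response regulators, repressors of *CCA1* and *LHY*, *PRR9* changed in opposite directions. It had 17.3, 22.0 and 22.3 CPM in *prmt5*, 8.13, 5.01 and 7.46 in *prmt4a;4b*, and 10.7, 13.0 and 10.5 in WT, with no overlap between genotypes. It rose by 0.80 ± 0.15 in *prmt5* (adjusted p = 0.00324), fell by 0.74 in *prmt4a;4b* (SE 0.19, adjusted p = 0.0110) and differed between the mutants by 1.59 ± 0.18 (adjusted p = 9.05e-05), while without *prmt4a;4b* library 2 its fall did not pass. *PRR5* rose in both, by 0.72 ± 0.17 in *prmt5* and 0.75 ± 0.15 in *prmt4a;4b* (adjusted p = 0.00905 and 0.00306), and *PRR7* and *TOC1* passed in neither (0.07 and 0.01 in *prmt5*, -0.36 and -0.17 in *prmt4a;4b*). The call of *PRR5* was lost without *prmt5* library 3 in *prmt5* and without *prmt4a;4b* library 2 in *prmt4a;4b*.

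Of the 8 genes of the evening complex, *GI* and the F-box photoreceptors, 4 rose in each mutant and none fell, beside 11.9% of all genes that rose in *prmt5* and 13.8% in *prmt4a;4b*. *LUX* rose by 0.63 ± 0.17 in *prmt5* and 1.12 ± 0.18 in *prmt4a;4b* (adjusted p = 0.0182 and 0.000661), and its relative *BOA* by 1.05 ± 0.21 and 1.09 ± 0.21 (adjusted p = 0.00393 and 0.00186). *FKF1*, the photoreceptor of flowering time, rose by 0.77 ± 0.20 and 0.76 ± 0.19 (adjusted p = 0.0152 and 0.00996), while *ELF4* passed in *prmt5* (0.58 ± 0.15, adjusted p = 0.0156) and not in *prmt4a;4b* (0.36 ± 0.17, adjusted p = 0.118). *ELF3*, the scaffold of the evening complex, rose in *prmt4a;4b* (0.70 ± 0.12, adjusted p = 0.00102) and was at 0.32 ± 0.13 in *prmt5* (adjusted p = 0.0775). *GI* passed in neither mutant (0.22 ± 0.12 in *prmt5* and 0.09 ± 0.12 in *prmt4a;4b*). In *prmt5* the calls of *LUX* and *ELF4* were lost without WT library 1 or 2 or *prmt5* library 1, and in *prmt4a;4b* that of *FKF1* without WT library 2. None of these 8 genes differed between the mutants by the limits.

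Of 10 other regulators of *CCA1* and *LHY*, *LWD1* and *LWD2*, which activate *CCA1*, fell in *prmt5*, and *CHE*, a repressor of *CCA1*, and *JMJD5*, a histone demethylase gene of the clock, rose in *prmt4a;4b*. *LWD1* was at -0.86 ± 0.15 in *prmt5* and, short of the size limit, at -0.52 ± 0.17 in *prmt4a;4b* (edgeR adjusted p = 0.00172 and 0.0314). *LWD2* was at -0.85 ± 0.21 and -0.35 ± 0.19 (adjusted p = 0.0104 and 0.176). *CHE* was at 0.89 ± 0.12 in *prmt4a;4b* and, short of that limit, at 0.44 ± 0.13 in *prmt5* (adjusted p = 0.00032 and 0.0272). *LWD1*, *LWD2* and *CHE* were not called between the mutants (-0.30, -0.45 and -0.41). *JMJD5* was lower in *prmt5* than in *prmt4a;4b* (-0.62 ± 0.23, adjusted p = 0.0654), a call lost without *prmt5* library 2 or 3 or *prmt4a;4b* library 2. None of 4 clock outputs with evening peaks passed in either mutant. Of 7 splicing factor genes known to affect clock transcripts none passed in *prmt5*, and in *prmt4a;4b* *SIC* fell and *LSM4* rose, the second call being lost without *prmt4a;4b* library 1. *SIC* was at -0.76 ± 0.15 in *prmt4a;4b* and -0.52 ± 0.14 in *prmt5* (edgeR adjusted p = 0.00299 and 0.0191). *LSM4* was at 0.68 ± 0.13 and 0.52 ± 0.14 (adjusted p = 0.00231 and 0.0173). In *prmt5* both were thus short only of the size limit, and neither was called between the mutants (0.28 and -0.11).

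**Figure D5:**
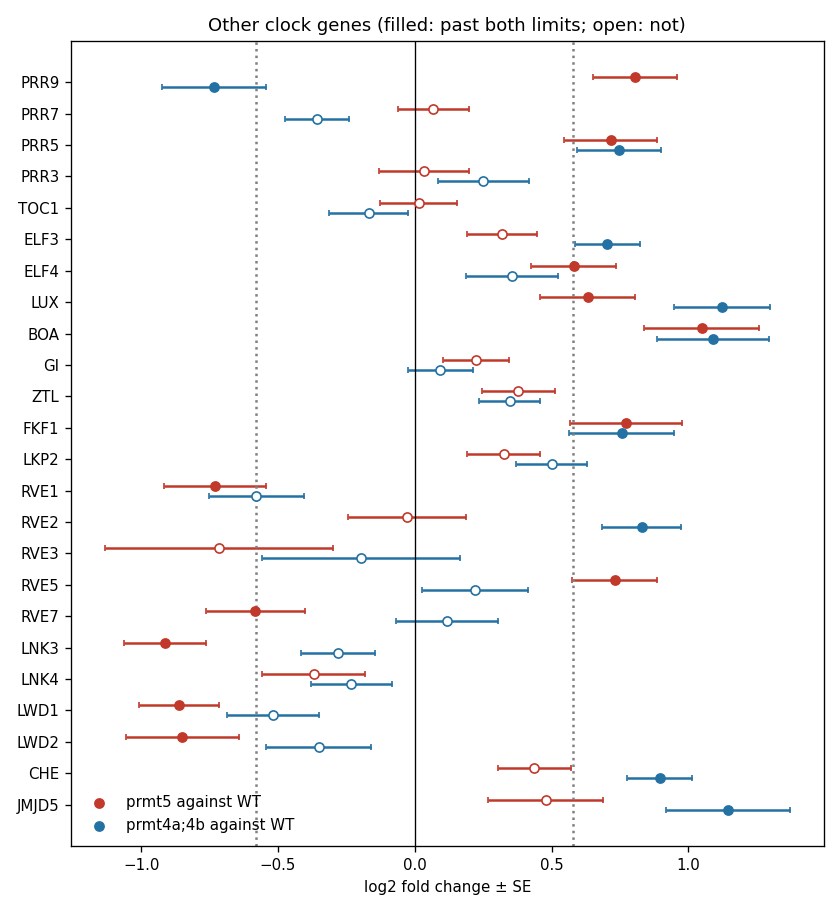
Log2 fold change ± SE (edgeR) of other clock genes in *prmt5* (upper) and *prmt4a;4b* (lower of each pair) against WT; filled symbols passed both limits, open ones did not, and dotted lines mark 0.58. *PRR9* lies on opposite sides of 0 in the mutants, and *PRR5*, *LUX*, *BOA* and *FKF1* are filled and above 0 in both.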

How the data were processed

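Per the labels, poly(A) RNA was made into TruSeq libraries without strand. TopHat2 2.0.9 placed them on TAIR10, and the authors deposited raw read counts for every gene, AS bin and intron, with feature widths. Their own result tables (fold changes, FDR and splicing indices, made with edgeR 3.4.2 in R 3.0.2) were not used. WT counts are identical in the tables of both mutants. Counts were tested here with edgeR 4.0.16 in R 4.3.3 (glmQLFit, glmQLFTest, TMM, Benjamini-Hochberg), each mutant against WT in its own fit of 6 libraries and the mutants directly in a fit of 9. Genes needed a mean of 10 reads, and bins and introns 5, in a genotype. Bins and introns took their scaling from the genes. Alternatives were DESeq2 1.42.0, RLE scaling, other read filters, a replicate block, each library left out, an adjusted p under 0.05, a joint fit and the share of gene reads. The fits were tested on simulated data. All members, every bin or intron called in reads or on the share with all libraries, and the most read bins, were named, and of other lists the genes called in both mutants or differing between them, with 7 central clock genes in any case. *RVE1*, *RVE5*, *LWD1*, *LWD2*, *CHE*, *ELF3*, *SIC*, *LSM4*, *CAB1*, *CAB2*, *NRT2.1* and *CRA1* were added after their values were seen. The members and lists were chosen with earlier results of these data known. One gene among those most like a member is not reported here.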

Additional observations from a re-analysis of the deposited data

How the results depend on the processing

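The falls of *LHY*, *LNK2* and *AT5G52660* in *prmt5* passed under all alternatives run for genes. Without single libraries the number of members called ranged from 1 to 3 in *prmt4a;4b*, against 2 with all libraries, and from 1 to 2 between the mutants, against 1. The calls of bins and introns depended more on the setting, and most rest on few reads. In *prmt5*, 1 AS bin was called with all libraries, 1 to 2 without single libraries, 0 where every genotype needed at least 5 reads (the *LHY* leader intron was then not tested), 7 on the share of the gene reads, and 8 on that share without WT library 3, a setting chosen after the data were seen. The 65-base intron of *LNK2* turned from -0.19 in reads to 1.19 on the share and 1.64 on the share without WT library 3, since the gene fell. In *prmt5*, 4 introns were called, 3 to 7 without single libraries, 1 with at least 5 reads in every genotype, and 7 on the share without WT library 3. In *prmt4a;4b*, 3 introns were called, 0 to 4 without single libraries, 1 with DESeq2, 1 with at least 5 reads in every genotype and 0 at an adjusted p under 0.05. Between the mutants 4 AS bins were called, 1 to 4 without single libraries, 2 with at least 5 reads in every genotype and 1 at an adjusted p under 0.05; of introns 2 were called, 1 to 3 without single libraries, and 1 each with DESeq2, with at least 5 reads in every genotype and at an adjusted p under 0.05. In *prmt4a;4b* the number of AS bins called stayed within 5 to 8, against 6. RLE scaling and the fit of all 9 libraries moved no count by over 1.5 times.

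Libraries of different genotypes shared only a replicate number: their deviations from the genotype means correlated at -0.02 to 0.00 for *prmt5* and WT, 0.00 to 0.12 for *prmt4a;4b* and WT, and -0.12 to 0.13 for the mutants. With the replicate block 3 members were called in *prmt5*, 2 in *prmt4a;4b* and 1 between the mutants, and the counts of bins and introns were also as without the block.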
